A study of Caenorhabditis elegans with 2 samples.

Results

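Heterochronic genes set which cell fates, and which cuticle, are made at each larval stage of the nematode Caenorhabditis elegans. Some members hold cells in young fates, the microRNAs lin-4 and let-7 shut several of these down in turn, and lin-29, at the end of the pathway, drives the switch to the adult. Mutants either repeat or skip the divisions of a stage, best known in the lateral seam cells of the epidermis. ChIP-seq regions for the nuclear hormone receptor NHR-11 were looked up at 10 genes of this pathway, namely ain-1, ain-2, lin-14, lin-28, lin-66, lin-46, hbl-1, lin-41, lin-29 and lin-42, out of 19973 protein-coding genes on the nuclear chromosomes.

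The genes were taken as a fixed list. A region was assigned to a gene when its summit, the point of strongest signal, lay within 2000 bases of the annotated 5′ end on either side or inside the gene body, so 1 region can belong to several genes. The data are ChIP-seq of whole worms of strain OP305 at the L3 larval stage, in 1 group of 2 biological replicates. The sex is given as males and females pooled. Every animal carried the unc-119(ed3) mutation on chromosome III and the insertion wgIs305, which provides eGFP-tagged nhr-11. The antibody label reads nhr-11, while another label gives the target as eGFP-nhr-11, so which epitope was recognised is not settled. Neither a strain lacking the tag nor a second condition was analysed here, so specificity for the receptor was not tested. In whole animals, binding in few cells and weak binding in many cells cannot be told apart.

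Regions came from 4 deposited lists on ce11. The pooled list and each replicate list held 30000 candidates meant to include background, and the reproducible list held 1030 regions kept after a filter on irreproducible ranks between replicates. These 1030 were the 1030 strongest pooled candidates, the weakest of them at a peak signal of 54.86 and the next candidate at 54.84. Peak signal is the value the authors' caller gave each region, on a scale that the files do not state. The lists hold no read counts, so depth is unknown and no interval can be given for a single region. Signals are therefore compared within a list only, and ranks run from 1, the strongest.

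Reproducible regions lay at 6 of the 10 heterochronic genes, ain-1, lin-14, lin-41, lin-28, lin-66 and lin-42, against 1158 of all 19973 protein-coding genes (5.8%). They numbered 8 in all, with 2 each at ain-1 and lin-14, and 2 or more regions were found at 0.511% of all protein-coding genes. The 2 ain-1 regions overlap, and the lin-14 body is longer than that of 99.1% of protein-coding genes. No reproducible region lay at ain-2, lin-46, hbl-1 or lin-29. In all 8 cases the heterochronic gene was the only protein-coding gene that met the rule, which held for 539 (62.2%) of the reproducible regions assigned to any protein-coding gene. The list was drawn up with earlier results of these data known, so these counts describe the genes and support nothing further.

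**Figure D1:**
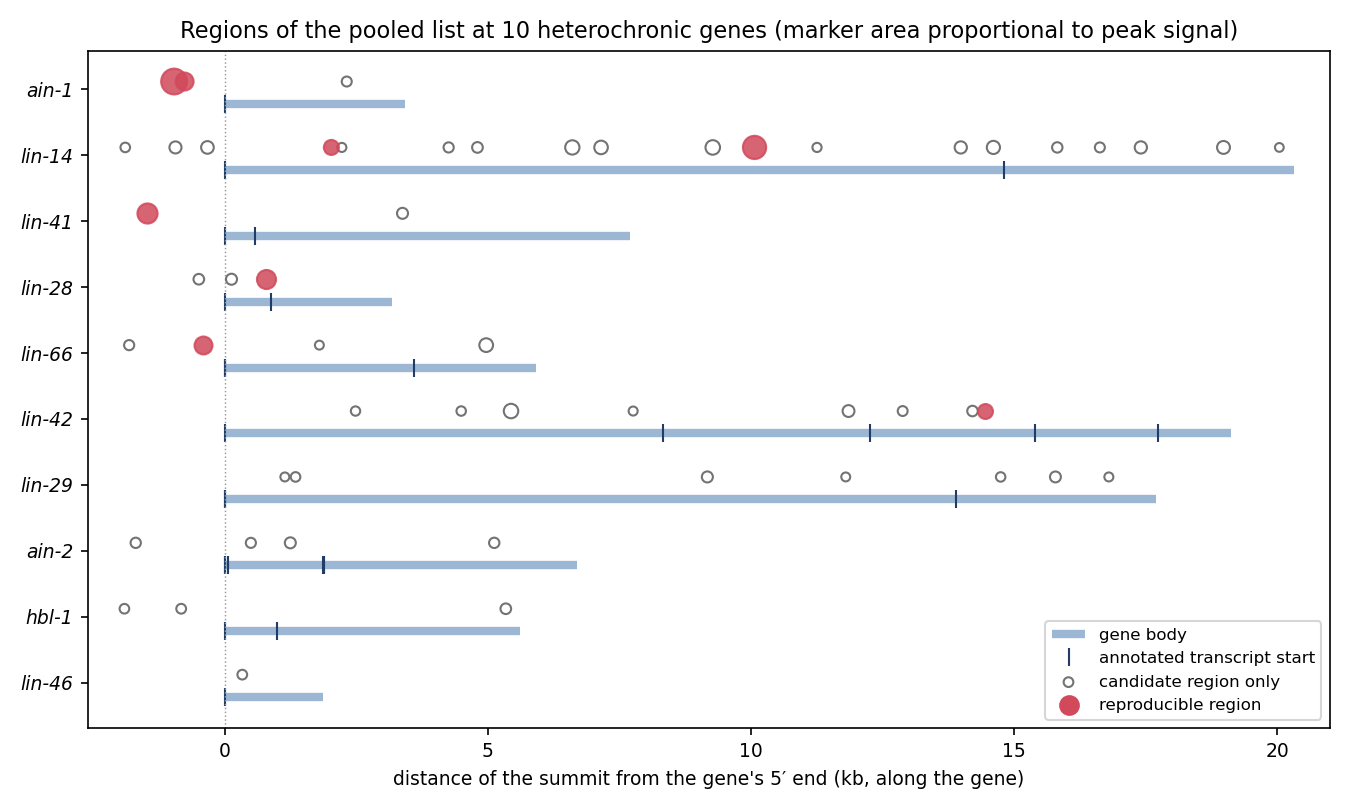
Positions of pooled regions at the 10 genes, in kilobases along each gene from its 5′ end, with filled circles for reproducible regions, open circles for other candidates and circle area proportional to peak signal. Bars are gene bodies and ticks are annotated transcript starts; ain-1, lin-41 and lin-66 carried their reproducible regions upstream, and lin-14, lin-28 and lin-42 inside the body.

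Windows around 6 summits at ain-1, lin-66, lin-14 and lin-42 are shown because they differ in which short words they hold. Each window is on ce11, read from the RefSeq WBcel235 genome on the strand of the gene, 5′ to 3′. Capitals mark matches, on either strand, to any of 10 short words. These were GAGAGA, then AGACGC and the overlapping ACGCAG, then GCGCGC, then the E-box CACGTG, then AGGTCA with its variants AAGTCA and also AGTTCA as receptor half-sites, then TGATAA of GATA factors and finally TGACTCA of AP-1 factors. The ain-1 window of 300 bases, chrX:16612439-16612738, holds both summits, at positions 51 and 251. The other windows have 151 bases with the summit at position 76, at chrIV:13887600-13887750 for lin-66, chrX:11475554-11475704 for the stronger and chrX:11467512-11467662 for the weaker lin-14 region, and chrII:1237838-1237988 on the minus strand for lin-42.
ain-1: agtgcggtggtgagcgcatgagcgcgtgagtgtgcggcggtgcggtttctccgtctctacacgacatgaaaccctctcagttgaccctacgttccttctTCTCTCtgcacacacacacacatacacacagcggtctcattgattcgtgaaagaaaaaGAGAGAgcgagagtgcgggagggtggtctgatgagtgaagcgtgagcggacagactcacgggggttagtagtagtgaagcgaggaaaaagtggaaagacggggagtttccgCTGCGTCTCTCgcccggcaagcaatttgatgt
lin-66: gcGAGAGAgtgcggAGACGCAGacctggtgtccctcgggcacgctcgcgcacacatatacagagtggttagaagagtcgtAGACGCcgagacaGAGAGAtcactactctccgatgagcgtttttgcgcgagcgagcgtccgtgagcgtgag
lin-14, stronger region: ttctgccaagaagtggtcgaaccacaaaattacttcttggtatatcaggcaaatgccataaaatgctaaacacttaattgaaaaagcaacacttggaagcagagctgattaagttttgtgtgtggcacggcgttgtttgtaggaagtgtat
lin-14, weaker region: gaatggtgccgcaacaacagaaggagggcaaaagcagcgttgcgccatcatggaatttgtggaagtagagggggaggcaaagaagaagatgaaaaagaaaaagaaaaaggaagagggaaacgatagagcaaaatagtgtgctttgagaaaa
lin-42: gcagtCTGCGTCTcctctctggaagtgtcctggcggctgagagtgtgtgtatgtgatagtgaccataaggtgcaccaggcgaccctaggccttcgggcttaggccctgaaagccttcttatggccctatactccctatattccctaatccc

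Among the windows shown, that of ain-1 with 300 bases and that of lin-66 with 151 bases held the most matches, 5 each. Neither lin-14 window held any. Windows of lin-28 and lin-41 are not shown, so they have no place in this order. In ain-1 the run CTGCGTCTCTC starts 18 bases beyond the second summit and contains ACGCAG, then AGACGC and then GAGAGA, each as its reverse complement and each overlapping the next. In lin-66 AGACGC starts 5 bases and GAGAGA 18 bases beyond the summit, and a further GAGAGA and the overlapping pair AGACGC and ACGCAG start 73, 61 and 59 bases before it. In lin-42 the overlapping pair lies near the left edge, 70 and 68 bases before the summit. A match is a description of the letters, not evidence of a site.

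The 10 words were chosen with earlier results of these data known, so their shares are descriptions and test nothing. Within 50 bases of the 8 summits, GAGAGA was found at 3, at ain-1, lin-28 and lin-66, against 28.6% of all 1030 reproducible summits and 7.80% of the 30000 pooled candidates. AGACGC was found at 2 of the 8, against 13.4% of reproducible summits and 2.79% of candidates, and ACGCAG at 1, against 16.7% and 2.96%. The half-site AGGTCA lay at the lin-28 summit, 1 of the 8, against 2.62% of reproducible summits and 2.48% of candidates. None of the 8 had GCGCGC, against 5.15% of reproducible summits and 0.80% of candidates, or CACGTG, against 6.21% and 1.90%. None had AAGTCA, against 3.79% and 5.06%, or AGTTCA, against 3.59% and 6.87%. None had TGATAA, against 5.53% and 10.4%, or TGACTCA, against 1.46% and 1.09%. At least 1 of the 10 words was within 50 bases of 3 of the 8 summits, against 58.8% of reproducible summits and 34.5% of candidates. The remaining 5 had none of these words in full in that window. The G and C content of the 101-base windows had a median of 51.5% at the 8 summits, with a range of 34.7% to 58.4%, against 45.5% at all reproducible summits and 34.7% at pooled candidates.

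The strongest region of the set belonged to ain-1 (WBGene00015547, X 16613451 to 16616871), which encodes a GW182-related protein that joins Argonaute in the microRNA silencing complex. Its summit was intergenic, 962 bases upstream of the gene's single annotated start, in a region from 16612311 to 16612666 with a pooled signal of 171, rank 67. In the replicates the region covering this summit had a signal of 82.7 in replicate 1, rank 74, and 83.5 in replicate 2, rank 70. A second region, from 16612511 to 16612866, had its summit 762 bases upstream, a pooled signal of 82.6 and rank 386. The 2 regions overlap by 156 bases and their summits are 200 bases apart, so they share sequence and are not independent. Replicate 2 listed both, at ranks 70 and 254, whereas replicate 1 listed 1 region whose summit lay between them, 907 bases upstream. Of the 1030 reproducible regions, 24 overlapped another.

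The paralogue ain-2 (WBGene00015007, I 4653467 to 4660153), which acts in the same complex, had no reproducible region. Of its 4 pooled candidates the strongest had a signal of 31.0, rank 6579, with a summit 1247 bases inside the gene that also lay within 2000 bases of the 5′ end of ptps-1. The region covering that summit ranked 7000 in replicate 1 and 10960 in replicate 2, where another candidate assigned to ain-2 stood higher, at rank 2918. That candidate lay 1705 bases upstream of ain-2 but nearer to the start of B0041.5, at 985 bases, and also met the rule for B0041.12 and ptps-1. The ain-1 and ain-2 ranks thus stood far apart in each of the 2 replicates.

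Among the early-acting genes, lin-14 (WBGene00003003, X 11465560 to 11485871), which encodes a DNA-binding protein of early larval fates and is a target of lin-4, had most regions. Its strongest region, from 11475451 to 11475806, lay in an intron of the longer transcript, 10069 bases downstream of the gene's 5′ end and 4732 bases upstream of the start of the shorter transcript. It had a pooled signal of 138, rank 119, with 77.9 in replicate 1, rank 87, and 67.9 in replicate 2, rank 139. The second, from 11467409 to 11467764, had its summit 2027 bases downstream, also in an intron of the longer transcript, a pooled signal of 57.9 and rank 909. It was not among the 1030 strongest of either replicate, with signals of 25.3 and 27.4 at ranks 1674 and 1120, and the replicate 1 summit lay 174 bases away. The stronger region was thus high in both replicates. Of the pooled and replicate lists, only the pooled one held the weaker region within its first 1030 ranks.

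Candidates were also dense across lin-14. The pooled list held 19 of them in 22.3 kb, 0.852 per kb, more than at 97.5% of protein-coding genes, for which the median was 0.250 per kb. The replicate lists held 21 and 17. Of the 19 pooled candidates, 13 had their summit covered in both replicate lists and 6 in 1, against 39.9% of all pooled candidates covered in both. The body of 20312 bases is longer than that of 99.1% of protein-coding genes. The 3 strongest lin-14 candidates outside the reproducible list stood at ranks 1058, 1124 and 1487 with pooled signals of 54.0, 52.4 and 47.0. How often genes of this length hold candidates at such ranks was not computed. The first of these 3 candidates ranked 625 in replicate 2 but 6372 in replicate 1.

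The gene lin-28 (WBGene00003014, I 8407630 to 8410804, minus strand) encodes an RNA-binding protein that blocks the maturation of let-7. Its reproducible region, from 8409838 to 8410193, had a pooled signal of 93.4, rank 296, with 47.2 in replicate 1, rank 306, and 44.5 in replicate 2, rank 374. The summit was 788 bases downstream of the gene's 5′ end, in an intron of the longer transcript, and 96 bases upstream of the annotated start of the shorter one. Among summits in a body with several annotated starts and over 500 bases from the gene's 5′ end, 1 of 4 at heterochronic genes, this one, lay within 500 bases of another start, against 45 of 227 over all genes. The replicate summits lay within 1 base of the pooled one.

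The gene lin-66 (WBGene00001562, IV 13888079 to 13893986) encodes a protein that lowers lin-28 output after transcription. Its region from 13887497 to 13887852 had an intergenic summit 404 bases upstream, a pooled signal of 82.4 and rank 389. The covering region had a signal of 46.5 in replicate 1, rank 316, and 37.3 in replicate 2, rank 565, and the replicate 1 summit lay 92 bases nearer to the gene. A further candidate 4969 bases inside the gene, in the 3′ UTR, had a pooled signal of 48.2, rank 1372, and stood at rank 966 in replicate 1 and 2345 in replicate 2.

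Both hbl-1 and lin-46 had candidates only. For hbl-1 (WBGene00001824, X 5822142 to 5827755), a zinc finger factor of early fates related to Drosophila hunchback, the strongest of 3 pooled candidates had a signal of 29.0, rank 8554, and lay 5342 bases inside the gene but nearer to the start of acp-5. It ranked 18597 in replicate 1 and 7803 in replicate 2. Each replicate held another hbl-1 candidate that stood higher, at rank 17337 in an intron in replicate 1 and at rank 2397 upstream of the gene in replicate 2. For lin-46 (WBGene00003031, V 12968855 to 12970730), which encodes a protein of the gephyrin family that acts downstream of lin-28 and favours later fates, the single pooled candidate had a signal of 24.2, rank 16314, with rank 7801 in replicate 1 and 26605 in replicate 2. Its summit, 334 bases inside the gene in an intron, was also within 2000 bases of the starts of R186.3, R186.8 and pnn-1.

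Of the genes acting at the larval-to-adult switch, lin-41 (WBGene00003026, I 9334800 to 9342496, minus strand), an RNA-binding protein of the TRIM-NHL family and a target of let-7 that holds the switch back, had the third strongest region. It spanned 9343787 to 9344142, with an intergenic summit 1469 bases upstream, a pooled signal of 104 and rank 238. Replicate 1 gave a signal of 55.5, rank 213, and replicate 2 gave 47.8, rank 315. No other protein-coding gene started within 2000 bases of this summit.

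The gene lin-42 (WBGene00018572, II 1233236 to 1252359, minus strand) encodes a relative of the Period clock proteins and acts in the rhythm of the moults. Its reproducible region, from 1237735 to 1238090, lay 14446 bases inside the gene in an intron, 944 bases upstream of the start of 1 of its shorter transcripts, with a pooled signal of 57.4, rank 927. It was among the 1030 strongest of replicate 2, at rank 875, and not of replicate 1, at rank 1642. A second candidate in an intron, 5441 bases inside the gene, missed the reproducible list at rank 1075 with a pooled signal of 53.5, and here the replicates were turned round, at rank 815 in replicate 1 and 2192 in replicate 2. The 2 lin-42 regions thus lay on either side of the list's limit with nearly equal signals.

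The gene lin-29 (WBGene00003015, II 11917642 to 11935343, minus strand) encodes the zinc finger factor at the end of the pathway, needed for adult fates of the epidermis. It had 7 pooled candidates in 19.7 kb and no reproducible region. The strongest had a pooled signal of 31.1, rank 6480, in an intron 9172 bases inside the gene, and ranked 24084 in replicate 1 and 7153 in replicate 2. Each replicate held a stronger lin-29 candidate elsewhere, at rank 9753 in an intron in replicate 1 and at rank 3822 in the coding sequence in replicate 2. Of the 7, 1 (14.3%) was covered in both replicate lists, 4 in 1 and 2 in neither. Among all 30000 pooled candidates, 39.9% were covered in both and 1745 in neither. The heterochronic genes together had 54 pooled candidates, of which 32 (59.3%) were covered in both, 20 in 1 and 2 in neither. Of these 32, 13 were at lin-14.

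Across the 8 reproducible regions, 6 were among the 1030 strongest of both replicates, 1 of replicate 2 only and 1 of neither. The 2 ain-1 regions, both among the 6, were matched to the same replicate 1 region, at rank 74. Over all 1030 reproducible regions these classes held 62.5%, 34.4% for either replicate alone and 3.11%. Taken from each replicate alone, the 1030 strongest regions again gave 8 regions at the same 6 genes, but not the same 8. In replicate 1, 5 of them covered a reproducible summit, the ain-1 region covering 2, and 3 at lin-66, lin-14 and lin-42 did not. In replicate 2, 7 covered a reproducible summit and 1, at lin-14, did not.

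**Figure D2:**
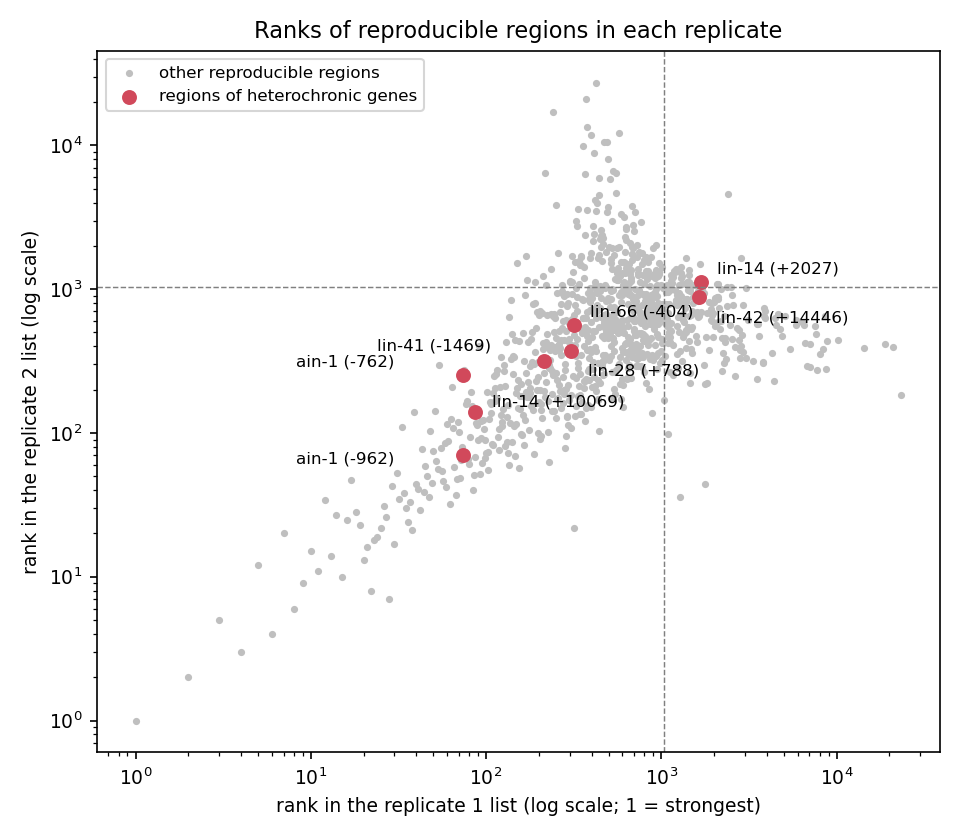
Rank in the replicate 1 list (x axis) against rank in the replicate 2 list (y axis), both on log scales, for the reproducible regions, with those of heterochronic genes filled and labelled by gene and summit distance in bases from the 5′ end. Dashed lines mark rank 1030, with the lin-14 region at +2027 beyond both lines and the lin-42 region beyond that of replicate 1. Both ain-1 points take their replicate 1 rank, 74, from the same region.

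By the strongest pooled region of each gene, the 10 genes spread over much of the range of the genome. The signal of ain-1 was above that of 99.5% of protein-coding genes, lin-14 above 99.2%, lin-41 above 98.5%, lin-28 above 98.1%, lin-66 above 97.6% and lin-42 above 94.7%. Reproducible regions are the 1030 strongest pooled candidates, so any gene with a reproducible region is among the top 5.8% of genes by definition. The high standing of these 6 genes therefore restates that call and adds only their order. The other 4 stood lower, with lin-29 above 72.6%, ain-2 above 72.2%, hbl-1 above 65.7% and lin-46 above 44.9%. Having any candidate says little, since all 10 genes had at least 1 and so did 77% of protein-coding genes. The median strongest signal was 69.9 over the 10 genes, against 27.9 over all protein-coding genes with a candidate. With a reproducible region at 6 of the 10, this median had to lie above the weakest reproducible signal.

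**Figure D3:**
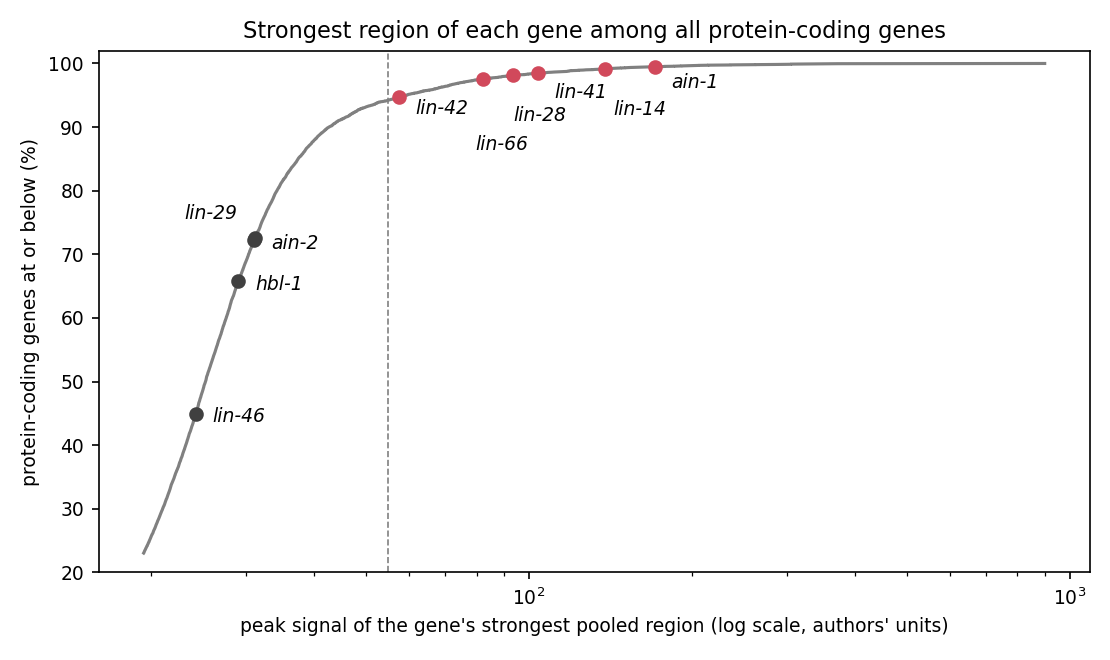
Peak signal of each gene's strongest pooled region (x axis, log scale, authors' units) against the percentage of all protein-coding genes at or below it (y axis), with the grey line for all genes. Red points are heterochronic genes with a reproducible region and dark points those without; the dashed line is the weakest reproducible signal, 54.9.

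The rule takes in more bases at a long gene, and the share of all genes with a reproducible region was 5.89% for bodies under 1 kb, 4.19% for 1 to 2 kb, 5.42% for 2 to 5 kb, 8.32% for 5 to 10 kb, 11% for 10 to 20 kb and 18.2% for 20 kb or more. The 10 genes had a median body length of 6297.5 bases, against 2027 for all protein-coding genes. Of the 7 heterochronic genes with a body of at least 5 kb, 4 had a reproducible region, against 9.59% of all genes of that length, and of the 3 with at least 10 kb, 2 had one, against 12.4%. Of the 3 shorter ones, 2 had one, ain-1 and lin-28, against 5.07% of genes under 5 kb. With the body left out and only the 2000 bases on each side of the 5′ end counted, 4 of the 10 had a region, ain-1, lin-28, lin-66 and lin-41, against 5.22% of all genes. Of the 8 regions, 4 lay upstream of the gene and 4 in its body, 3 of these beyond 2000 bases. Over all 1298 pairs of a gene and a reproducible region, 66.6% lay upstream, 25.7% in the body and 7.63% past the 3′ end of a short gene, and 15.5% lay in the body beyond 2000 bases. The part of gene length in the count over the 10 genes was not tested.

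**Figure D4:**
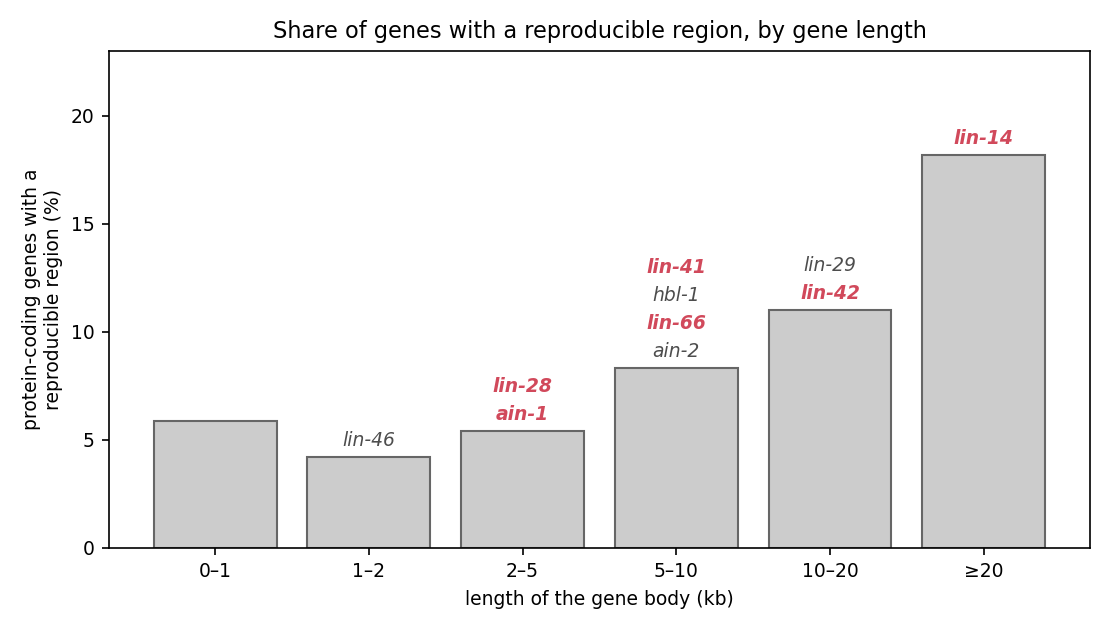
Percentage of protein-coding genes with a reproducible region (y axis) by length of the gene body in kilobases (x axis). Names above the bars place the 10 genes in their length class, in bold red where a reproducible region was found; the share was 5.89% for bodies under 1 kb, lowest at 4.19% for those of 1 to 2 kb, and 18.2% for those of 20 kb or more.

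Other genes of the pathway were read by the same rule from a list of 28, also drawn up with earlier results of these data known. Of the 28, 22 are protein-coding, and their counts describe these genes and support nothing further. A reproducible region lay at 7 of these 22, puf-9, nhl-2, kin-20, din-1, xrn-2, sea-2 and daf-12, beside the 5.8% of all protein-coding genes. The list is made up mostly of long genes, and of the 19 with a body of at least 5 kb 6 had a region, beside 9.59% of all genes of that length. The strongest was at puf-9, a Pumilio-family RNA-binding protein, 290 bases upstream with a pooled signal of 292, rank 23, and it also met the rule for dct-11. It ranked 12 in replicate 1 and 34 in replicate 2, above every region of the 10 genes in each list. The next was 843 bases upstream of nhl-2, a TRIM-NHL cofactor of the microRNA complex, with a signal of 206, rank 43, but nearer to the start of tag-340. It ranked 46 in replicate 1 and 50 in replicate 2.

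Regions at the remaining 5 were weaker than the first of ain-1. For kin-20, a casein kinase related to fly Doubletime, the signals were 129 and 67.4 at 2322 and 872 bases inside the gene. For din-1, a corepressor partner of the nuclear receptor DAF-12, they were 126 and 113 at 732 and 1683 bases upstream and 60.0 in the body. The xrn-2 region, near a gene for an exonuclease that degrades microRNAs, had a signal of 123 and was nearer to the start of Y48B6A.1, with rpl-43 also meeting the rule. The sea-2 region, in a gene for a zinc finger protein, had a signal of 89.7 at 8530 bases inside, and the daf-12 region had 61.5 at 1636 bases inside, with rank 1485 in replicate 1. No reproducible region lay at dre-1, blmp-1, alg-1, alg-2, lep-2, nhr-23, nhr-25, nhr-85, mab-10, dcr-1, pup-2, hrpk-1, mab-3, dmd-3 or rbm-28, and lep-2 and nhr-23 had no pooled candidate either.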

How the data were processed

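ChIP-seq regions from 2 biological replicates of 1 group were used. Per the accompanying file descriptions, candidate regions were derived by the authors from each replicate alignment, or both pooled, with a control alignment, and the reproducible list was derived from the pooled and replicate lists. The deposited peak signal has no stated scale, and the deposited score, which falls below 0, was not used. The caller, the aligner and any version number are not given in the sources used here. Lists on the older build and the control were not used here. Positions on ce11 were joined to Ensembl release 115 (WBcel235, the same build, and every region lay within its chromosomes), coordinates are 1-based, and microRNA genes were matched through RefSeq symbols. Python 3.11.15 and pandas 2.3.3 were used, and the assignment was tested on simulated regions. Region width was 356 bases for 1026 of 1030 reproducible regions, so it carries no information. With 1 group and no counts, no p-value was computed. The 10 genes, the 28 others and the words were chosen with earlier results of these data known. All 10 genes are named with each reproducible region or, where there was none, the strongest candidate, and of the others those with a reproducible region. Alternatives covered the window, body, overlap, transcript starts, nearest gene, list length and each replicate alone.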

Additional observations from a re-analysis of the deposited data

How the results depend on the processing

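The 6 genes kept a region with overlap in place of summits, with the starts of all transcripts and with the nearest 5′ end only. They also did so with windows of 5000 bases and from each replicate alone. From replicate 1 alone, lin-42 kept only a region that is not in the reproducible list. With windows of 1000 bases 5 genes remained, lin-41 being lost, and with 500 bases 4, ain-1 also being lost, with 5 regions. Without gene bodies 5 regions at 4 genes were left, and with the 515 strongest regions lin-42 was lost. Leaving out a replicate gave 6 genes, 8 regions and 7 other pathway genes each time, with mab-3 in place of daf-12 without replicate 2. All protein-coding genes with a region then numbered 1118 to 1137, in place of 1158, and 708, 2026, 740 and 626 with windows of 500 bases, with windows of 5000 bases, with the nearest 5′ end only and with the 515 strongest regions. With 100 bases to each side, 5 of the 8 summits had at least 1 of the words, in place of 3, against 78.4% of reproducible summits and 56.0% of pooled candidates, in place of 58.8% and 34.5%. Between these alternatives the other pathway genes with a region numbered 5 to 8. At genes without a reproducible region, the standing of the gene's strongest candidate in each list differed most between replicates. That of lin-46 stood above 11.3% of the list in replicate 2 and 74.0% in replicate 1. For hbl-1 it was not the same region in both. The strongest stood above 92.0% in replicate 2, upstream of the gene, and above 42.2% in replicate 1, in an intron. Unknown read depth limits all ranks of weak candidates.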

Other observations

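None of the 6 noncoding pathway genes, the microRNA genes lin-4, let-7, mir-48, mir-84 and mir-241 and the long noncoding RNA gene lep-5, had a reproducible region, and each had at least 1 pooled candidate. Over all protein-coding genes these shares were 5.8% and 77%. Shares over all noncoding genes were not computed, so the counts describe these 6 genes and support nothing further. The strongest was at let-7, the microRNA of the larval-to-adult switch, 1980 bases upstream of the annotated gene with a pooled signal of 52.9, rank 1101. The microRNA genes mir-48 and mir-241, relatives of let-7, shared a candidate with a pooled signal of 37.5, rank 3133, which lay 118 bases upstream of mir-241 and 1892 bases upstream of mir-48. Those of mir-84, lin-4 and lep-5 had pooled signals of 28.1, 26.7 and 25.6, ranks 9611, 11713 and 13491.

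The windows printed for ain-1, lin-66 and lin-42 all hold AGACGCAG, read as CTGCGTCT in ain-1 and lin-42. This word was chosen after the sequences were seen, so its presence is no test. Within 75 bases of the summit it was found at 3 of the 8 regions, against 12.6% of all reproducible regions and 1.83% of pooled candidates, and within 50 bases at 1 of the 8, against 9.61% and 1.28%.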
